A study of Mus musculus with 6 samples.

Results

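The 39 genes described here encode the machinery that copies DNA in S phase. They were chosen as a named gene set, with earlier results of these data known. The set holds the 6 subunits of the MCM2-7 helicase, 5 origin recognition and licensing factors, 6 factors that activate the helicase, the sliding clamp and the 5 subunits of its loader, 3 subunits of the single-strand binding protein RPA, 8 subunits of the replicative polymerases and primase, 2 enzymes that finish Okazaki fragments and 3 enzymes that make deoxynucleotides. All 39 had a probe on the array, 55 probes in all among 33767 named probes of 23462 genes. Of these, 36 genes could be tested, through 51 probes, among 16451 tested named genes.

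The samples were colons of male mice, 3 labelled control and 3 labelled Islr knockout, each with its own number in the title and 1 single-colour Agilent array. Islr codes for a leucine-rich repeat protein known from mesenchymal stromal cells. The source field of the labels gives the same course for all 6 samples, 3.5% dextran sulfate sodium (DSS) in the drinking water over 5 days and 1 day without it, whereas the treatment field states none. DSS is a polysaccharide that injures the colonic epithelium. Strain, age, the knockout allele and the cells in which it acts are not given in the sources used here, and neither is whether controls were littermates. The comparison asks how loss of Islr bears on colonic gene expression during repair of that injury.

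Before a cell enters S phase, the origin recognition complex with Cdc6 and Cdt1 loads MCM2-7 rings onto origins. Cdc45 and the GINS complex then join each ring to form the active helicase, primase and polymerases begin synthesis, and the clamp Pcna, placed by the RFC complex, holds the polymerases on DNA. Transcription of most of these genes is switched on by E2F factors as a cell leaves quiescence. In the colon, dividing cells sit mainly in the lower crypt, and lymphoid tissue and wound stroma hold dividing cells too.

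The promoters of several members carry the sequence that E2F factors are known for, and these are shown because the genes are compared below for how they move together. RefSeq promoter sequences of mouse build GRCm38.p6 were matched by symbol for 32 of the 39 genes, not for Mcm4, Gins1, Gins2, Gins4, Rfc2, Prim2 or Pole. Over the 250 bases upstream of the start, a match to TTTCCCGC, TTTCGCGC, TTTGCCGC or TTTGGCGC on either strand was present in 8 of the 32 genes (25.0%), against 583 of 27025 genes with such a sequence (2.16%), 3.28% of tested named genes and 611 of 32851 windows of that length (1.86%). The share was 13 of 47 (27.7%) in the related replication genes described below, close to that of the members, and 1 of 15 (6.67%) in mitotic genes. The genes were Mcm5, Mcm6, Mcm7, Orc1, Cdc6, Gins3, Rfc3 and Pola1. Stretches of 5 of them follow, 5′ to 3′ on the gene's strand, with the matches in capitals; in Mcm5 and in the first run of Mcm6, matches on the 2 strands overlap and share 1 run of capitals.
Mcm5, chr8:75109336-75109387, plus strand: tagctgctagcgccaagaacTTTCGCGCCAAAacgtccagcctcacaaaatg
Mcm6, chr1:128359725-128359835, minus strand: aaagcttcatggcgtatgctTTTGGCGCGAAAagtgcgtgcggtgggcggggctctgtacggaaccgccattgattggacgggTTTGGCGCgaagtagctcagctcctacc
Mcm7, chr5:138172021-138172068, minus strand: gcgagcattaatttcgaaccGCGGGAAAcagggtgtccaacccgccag
Orc1, chr4:108579407-108579453, plus strand: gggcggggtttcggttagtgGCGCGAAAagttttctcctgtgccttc
Pola1, chrX:93632266-93632313, minus strand: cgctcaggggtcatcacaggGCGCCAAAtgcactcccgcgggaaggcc
Mcm5 and Mcm6 had the widest range over the arrays among the 23 members usable on all of them, Pola1 the lowest adjusted p of the tested members, and Orc1 almost the same mean in both groups. The box CCAAT, on either strand, was present in 22 of the 32 genes (68.8%) against 37.5% of all genes with a window. Its share was 39.3% in tested named genes, 46.8% in related replication genes and 13 of 15 (86.7%) in mitotic genes. TTTGAA, the core of the element known from mitotic genes, was present in 5 of 32 (15.6%) against 18.3% of all genes. The share was 14.1% in tested named genes, 17.0% in related replication genes and 40.0% in mitotic genes. A match is a description of these letters and no evidence of binding.

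All values below are log2 signals relative to the array's own 75th percentile over non-control spots, called levels here, so that 0 is that percentile. The 75th percentile was 6353 to 7110 intensity units on control arrays and 4910 to 5820 on knockout arrays. All 6 arrays were on 1 slide, the controls in 1 row and the knockouts in the other, so row and genotype cannot be told apart. Spots that the scanner software marked as outliers, 3.26% to 16.0% of an array, were left out of the fit; their readings are still given below, named as outlier spots. All 36 tested members were well above background on all 6 arrays. The Islr probe read 1.57 (an outlier spot), 1.24 and 1.21 in controls and -1.40, -0.93 and -1.31 in knockouts, so the labels matched the targeted gene. Compared with the other libraries, control replicate 2 stood apart in epithelial markers: summed over 7 epithelium markers, the linear signal was 12.0 times the array's 75th percentile there, against 30.9 to 65.9 on the other 5 arrays.

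No replication gene passed the test between genotypes. In limma with Benjamini-Hochberg adjustment over all 35351 tested probes, 0 of 36 members had an adjusted p under 0.05, whereas 3.82% of all tested named genes did (2.47% lower and 1.35% higher in the knockout). At an unadjusted p under 0.05 there were 5 members, all lower, a share close to the 14.5% of all tested named genes that were lower at that level; 28.2% of genes passed it in either direction. A difference of -1 or less was reached by 1 member, Pole2, and by 6.41% of all tested named genes. The direction was shared more widely than the size: 32 of 36 members had a lower mean in the knockout, against 48.8% of all tested named genes. The median difference of the members was -0.43 on the log2 scale, with a range from -1.23 to 0.33, and that of all tested named genes was 0.01. It moved with single arrays: leaving out control replicate 1 gave -0.73, knockout replicate 2 -0.71, control replicate 3 -0.27 and knockout replicate 3 -0.26. The order by role ran from the MCM2-7 helicase (median difference -0.70) and the polymerases with primase (-0.67) to the clamp and its loader (-0.16), with deoxynucleotide enzymes (-0.47), helicase activation (-0.37), RPA (-0.30), Okazaki fragment joining (-0.29) and origin licensing (-0.21) between them. These medians over 2 to 8 genes were not tested against each other. In bulk tissue, fewer dividing cells and less of these transcripts per cell cannot be told apart.

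**Figure D1:**
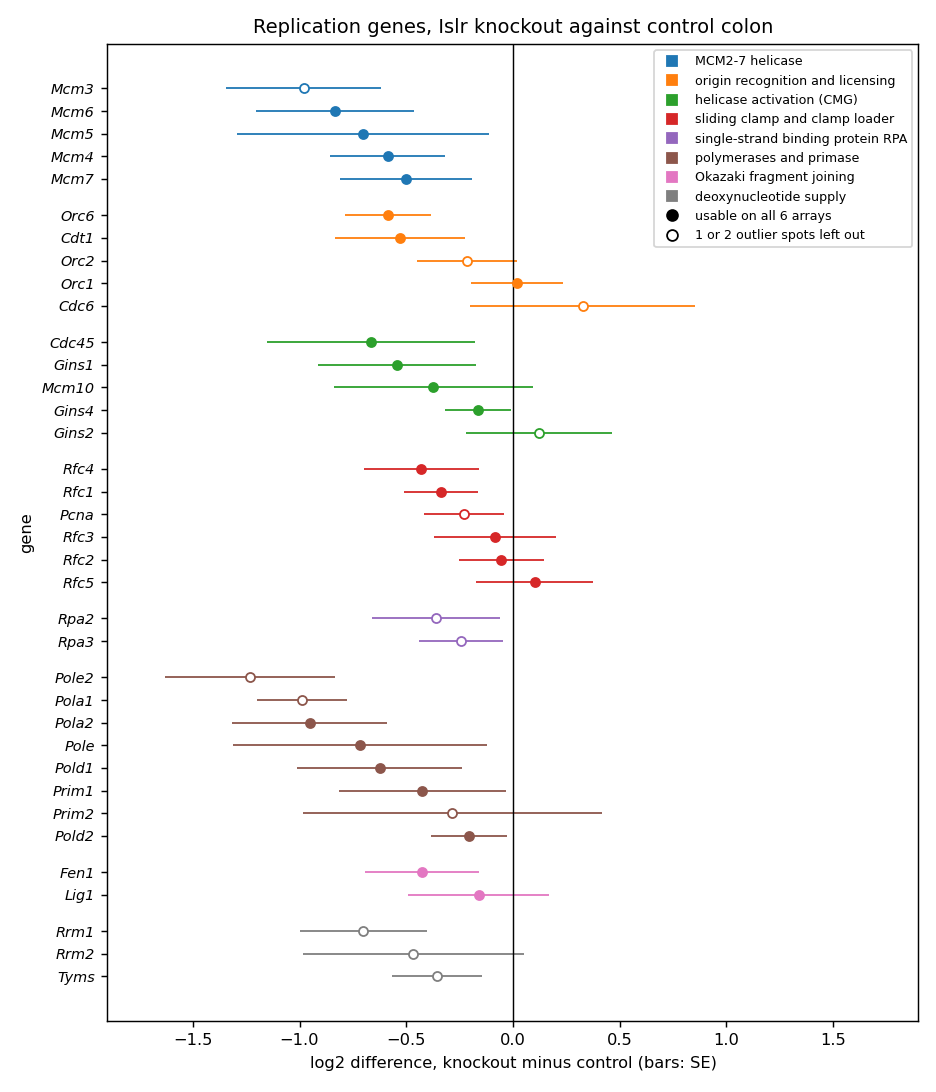
Difference in log2 signal, knockout minus control, of the 36 tested replication genes, grouped by role; bars are the moderated standard errors of limma, and open points have 1 or 2 outlier spots left out. Of the 36 points 32 lie below 0, from -1.23 to 0.33, and none passed at an adjusted p under 0.05.

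The MCM2-7 ring unwinds DNA at the fork, and its 5 tested subunits all had lower means in the knockout. In the order of replicates 1, 2 and 3, kept throughout, the controls read -0.105 (an outlier spot), 1.28 and 1.37 for Mcm3 and the knockouts -0.19, 0.99 and 0.23. Without the outlier spot the groups did not overlap, and the difference was -0.98 (SE 0.36, adjusted p 0.158 in limma). With it they overlapped and the difference was -0.50. The dimmer Mcm3 probes, usable on all 6 arrays, overlapped and differed by -0.83 (SE 0.48, adjusted p 0.313) and -0.71 (SE 0.49, adjusted p 0.397). The other subunits, each measured on all 6 arrays, overlapped between the groups. Mcm6 differed by -0.83 (SE 0.37), Mcm5 by -0.70 (SE 0.59), Mcm4 by -0.59 (SE 0.27) and Mcm7 by -0.50 (SE 0.31), with adjusted p from 0.207 to 0.483. A dimmer Mcm6 probe, also overlapping, differed by -1.25 (SE 0.46, adjusted p 0.145). Mcm5 read -1.70, -0.003 and 0.18 in controls and -1.49, -0.35 and -1.80 in knockouts: control replicate 1 lay with knockout replicates 1 and 3, and knockout replicate 2 lay closer to control replicates 2 and 3. Mcm2 could not be tested because 5 of its 6 spots were outlier spots; kept, they read -0.78, 0.54 and 0.30 in controls and -0.91, 0.31 and -0.74 (the only usable spot) in knockouts, with control replicate 1 again beside knockout replicates 1 and 3.

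Origin licensing was mixed. Orc6, a subunit of the origin recognition complex, read 0.28, 0.48 and 0.70 in controls and -0.05, 0.14 and -0.38 in knockouts, all usable, and every control lay above every knockout. Its difference of -0.59 (SE 0.20) had an adjusted p of 0.124, which was 0.0402 with array weights and 0.0961 to 0.308 in the other alternatives. Array weights called 7320 of all 35351 tested probes, against 1403 in the main fit. Orc6 was 1 of 2 members, with Rfc1, whose groups were apart on all 6 arrays, a count without a share of all genes beside it. Cdt1, the loading factor, differed by -0.53 (SE 0.30, adjusted p 0.310) and Orc2 by -0.21 (SE 0.23, adjusted p 0.607). A dimmer Orc2 probe read -0.74, -0.56 and -0.61 in controls and -1.31, -1.17 and -1.61 in knockouts, with no overlap and a difference of -0.73 (SE 0.17, adjusted p 0.0626). Orc1, the largest subunit of that complex, differed by 0.02 (SE 0.22) and Cdc6, which loads MCM rings with it, by 0.33 (SE 0.53), but the dimmer probe of each had the other sign. For Cdc6 the brighter probe had an outlier spot on control replicate 3 and on knockout replicate 1, while the dimmer one was usable on all arrays and differed by -0.82 (SE 0.54, adjusted p 0.368).

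Among the factors that turn the loaded ring into an active helicase, the lowest adjusted p at the probes that stood for the genes was 0.388. Cdc45 read -4.02, -2.60 and -2.31 in controls and -3.79, -3.07 and -4.06 in knockouts. Its difference was -0.67 (SE 0.49, adjusted p 0.418), and the spread within controls, 0.91 (SD, n = 3), exceeded it. Gins1, a GINS subunit, read -2.42, -1.70 and -1.56 in controls and -2.15, -2.01 and -3.15 in knockouts, a difference of -0.54 (SE 0.37, adjusted p 0.388); a dimmer Gins1 probe did not overlap between groups and differed by -0.85 (SE 0.29, adjusted p 0.124). Mcm10, which takes part in helicase activation, differed by -0.37 (SE 0.47), Gins4 by -0.16 (SE 0.15) and Gins2 by 0.12 (SE 0.34). The Gins2 value too comes from 2 usable spots per group, and its dimmer probe, usable on all arrays, differed by -0.49 (SE 0.35). Gins3 could not be tested; its readings, with outlier spots on replicates 1 and 2 of each group, were 2.57, 2.36 and 2.73 in controls and 2.38, 2.41 and 2.75 in knockouts, so the groups overlapped.

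The clamp and its loader showed the smallest differences. Rfc1, the large loader subunit, read 0.69, 0.86 and 1.07 in controls and 0.68, 0.59 and 0.34 in knockouts, and the groups were apart by the narrow gap between replicate 1 of each. The difference was -0.34 (SE 0.17, adjusted p 0.266). Rfc4 read -0.54, 0.12 and 0.18 in controls and -0.55, -0.15 and -0.83 in knockouts, a difference of -0.43 (SE 0.27, adjusted p 0.350), with control replicate 1 among the knockouts. Pcna, the clamp itself, read 2.01, 2.29 and 2.23 in controls and 1.95 (an outlier spot), 2.04 and 1.84 in knockouts, and differed by -0.23 (SE 0.19, adjusted p 0.473). The remaining loader subunits Rfc2, Rfc3 and Rfc5 lay between -0.08 and 0.10. Of RPA, which coats single strands, Rpa2 read -0.91, -0.41 and -0.69 (an outlier spot) in controls and -0.98, -0.65 and -1.44 in knockouts, a difference of -0.36 (SE 0.30, adjusted p 0.485). Rpa3 read 0.02 (an outlier spot), 0.41 and 0.30 in controls and 0.44 (an outlier spot), 0.12 and 0.10 in knockouts; its difference was -0.25 (SE 0.20, adjusted p 0.479) from the usable spots and -0.02 with all of them. Rpa1 could not be tested, with outlier spots on replicates 1 and 2 of each group, and read 0.73, 1.00 and 1.15 in controls and 0.24, 0.89 and 0.63 in knockouts.

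All 8 polymerase and primase subunits had lower means in the knockout, and 3 of the 5 members with an unadjusted p under 0.05 were among them. Pola1, the catalytic subunit of polymerase alpha, which extends the primers, read -1.44 (an outlier spot), -0.52 and -0.49 in controls and -1.65, -1.20 and -1.63 in knockouts. Its difference of -0.99 (SE 0.21) had the lowest adjusted p of the members, 0.0615. That p became 0.0278 under normexp and quantile normalization, 0.0467 under quantile scaling alone and 0.0196 under array weights, and lay between 0.0505 and 0.521 in the other alternatives. Normexp with quantile normalization, quantile scaling and array weights also called more probes than the main fit over the whole array. With the outlier spot kept it was -0.68, and the groups overlapped. Pole2, an accessory subunit of the leading-strand polymerase epsilon, read -3.58 (an outlier spot), -2.07 and -2.11 in controls and -3.73 (an outlier spot), -2.79 and -3.85 in knockouts. Its difference, -1.23 (SE 0.40, adjusted p 0.140), was the largest at the probes that stood for the genes. With all spots it was -0.87, smaller than that of Pola2. In both genes the reading left out was the lowest control. Pola2 differed by -0.95 (SE 0.36, adjusted p 0.153), the catalytic subunits Pole and Pold1 by -0.72 (SE 0.59) and -0.62 (SE 0.39), Prim1 by -0.43 (SE 0.39), Prim2 by -0.28 (SE 0.70) and Pold2 by -0.21 (SE 0.18). Prim2 read -0.45, -0.34 and -2.45 in controls and -1.78, 0.003 (an outlier spot) and -0.94 in knockouts. It was the only tested member with its lowest control on replicate 3; its difference turned to 0.17 with the outlier spot kept.

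Of the enzymes that join Okazaki fragments, Fen1, which trims the flaps, read 0.54, 1.14 and 1.29 in controls and 0.67, 0.83 and 0.19 in knockouts, a difference of -0.43 (SE 0.27, adjusted p 0.350). Lig1, the ligase, differed by -0.16 (SE 0.33, adjusted p 0.788). Among deoxynucleotide enzymes, Rrm1, the large subunit of ribonucleotide reductase, read -0.40 (an outlier spot), 0.44 and 0.59 in controls and -0.05 (an outlier spot), 0.15 and -0.52 in knockouts. The usable spots did not overlap and differed by -0.70 (SE 0.30, adjusted p 0.220), against -0.35 with all spots. Its partner Rrm2 differed by -0.47 (SE 0.52), and Tyms, which makes thymidylate, by -0.36 (SE 0.21) at 1 probe and by 0.05 (SE 0.22) at the other.

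**Figure D2:**
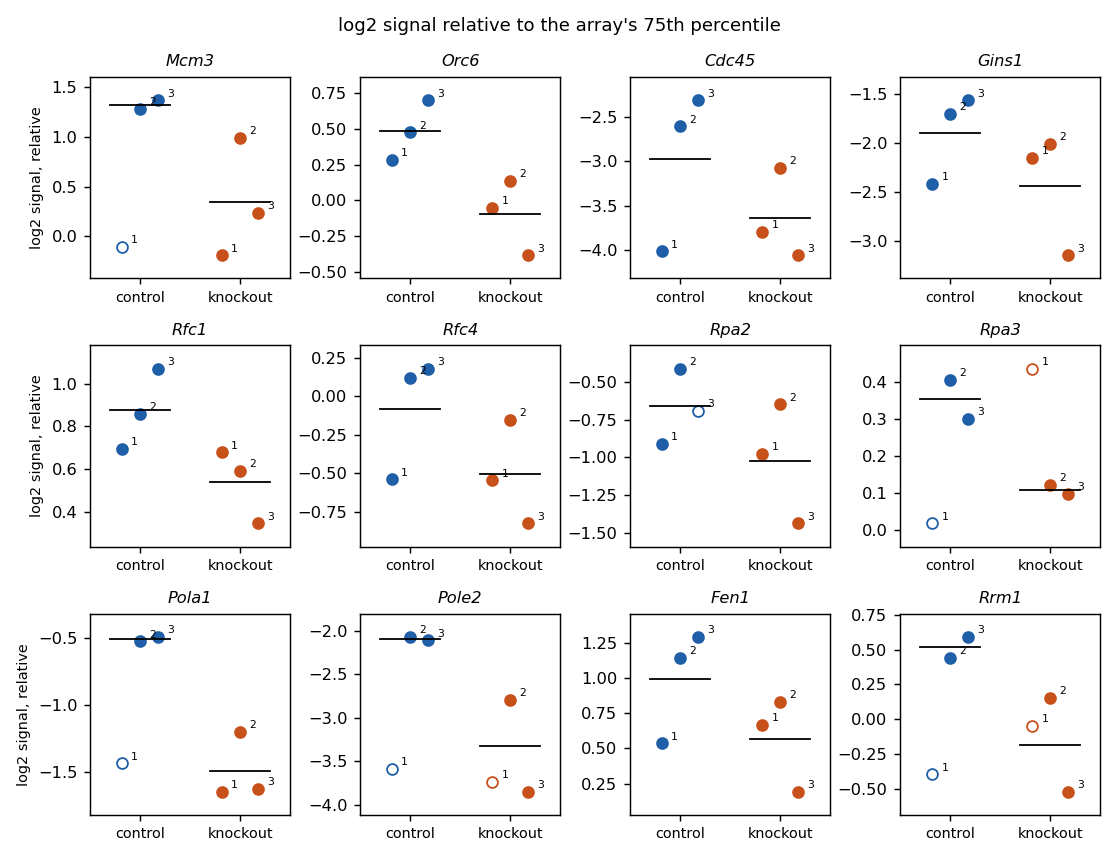
Log2 signal, scaled to each array's 75th percentile, of 12 replication genes, 3 control and 3 knockout arrays each; small digits are replicate numbers, open points are outlier spots, and bars are means of the usable spots. Control replicate 1 is the lowest control in all 12 panels, and in Mcm3, Rpa3, Pola1, Pole2 and Rrm1 it was an outlier spot and did not enter the mean.

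Separation of the groups rested largely on which spots were usable. On usable values the groups did not overlap in 8 of 36 members, all lower in the knockout, a share close to the 20.7% of all tested named genes that were lower without overlap. In 6 of these 8 (Mcm3, Rpa3, Pola1, Pole2, Rrm1 and Tyms) the reading of control replicate 1 was an outlier spot. With outlier spots kept, none of the 6 stayed apart, their median difference went from -0.84 to -0.43, and 2 of 36 members were apart (Orc6 and Rfc1). The share of all tested named genes apart with outlier spots kept was not counted, so that 2 of 36 has no background beside it. For the 23 members usable on all 6 arrays the median difference was -0.43 and 21 of 23 were lower. Of 14 members with several tested probes, 5 (Orc1, Cdc6, Cdc45, Gins2 and Tyms) had probes of both signs. Over the 51 tested probes 45 were lower and 0 were called, against 3.97% of all tested probes.

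The members shared their movement from array to array inside a genotype. Among the 23 members usable on all arrays, control replicate 1 was the lowest control for 22 and control replicate 3 the highest for 20. Knockout replicate 2 was the highest knockout for 22 and knockout replicate 3 the lowest for all 23. For comparison, over the 13680 tested named genes usable on all arrays, control replicate 1 was the lowest control for 6367 and knockout replicate 3 the lowest knockout for 3792. The median deviation of the 23 members from their own mean over 6 arrays was -0.25, 0.37 and 0.56 on control replicates 1, 2 and 3 and -0.24, 0.20 and -0.58 on knockout replicates 1, 2 and 3. Control replicate 1 thus lay at the level of knockout replicate 1, and knockout replicate 2 lay between the low and the high controls. After each genotype's mean was removed, the mean Pearson correlation over pairs of members was 0.82, and over all pairs of those 13680 genes it was 0.02. Over the 16 mitotic genes usable on all arrays, described below, it was 0.92, so movement this close was not particular to the members. These are descriptions over 6 arrays, whose points share an array, its labelling and its scaling. A first principal component over all arrays took up 89.7% of the 23 members' variance, against 64.7% for all genes and 91.9% for the 16 mitotic genes.

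**Figure D3:**
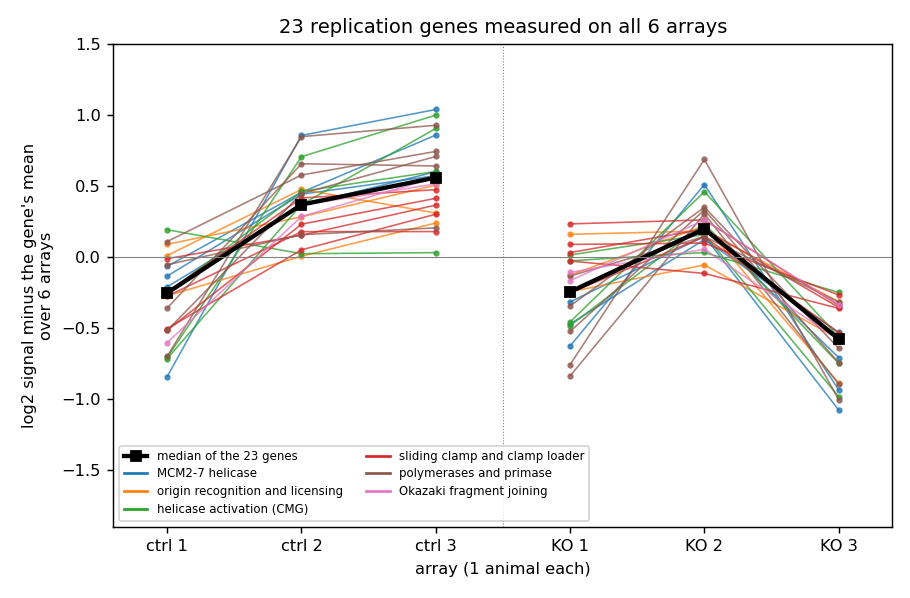
Log2 signal of each of 23 replication genes minus its own mean over 6 arrays, by array and coloured by role, with the median in black; lines join 1 gene within a genotype and the order of replicates has no meaning. The median is -0.25, 0.37 and 0.56 on the control arrays and -0.24, 0.20 and -0.58 on the knockout arrays, with 1 control among the low arrays and 1 knockout among the high ones. That each array is 1 animal, as the axis has it, is assumed and not stated in words by the labels.

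The members differed in how far they moved. Among the 23 usable on all arrays, the range was widest for Mcm5 (1.97 on the log2 scale, 3.93-fold), Mcm6 (1.94), Pole (1.93) and Cdc45 (1.75), and narrowest for Gins4 (0.44), Rfc2 (0.46), Pold2 (0.52) and Orc1 (0.55). Subunits of 1 complex could lie far apart, as Cdc45 and Gins1 (1.59) did against Gins4 in the active helicase, or Pold1 (1.40) against Pold2 in polymerase delta. The median range of the 23 members was 1.16, against 0.88 over all genes, and their median SD within genotypes was 0.43, against 0.27. Their median absolute difference between genotypes, also 0.43, was thus no larger than the spread between samples of 1 genotype. Over all genes the median absolute difference was 0.33, above their median SD of 0.27. The 5 of these members with an upstream E2F-type match had a median SD within genotypes of 0.44 and the 13 without one 0.43.

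Most genes that act beside the members also had lower means in the knockout, and none of them passed the test; the lists were not tested against the members. Of 57 other genes in 5 lists 52 were tested, 41 of them lower in the knockout, with a median difference of -0.30; 0 were called, and 5 were lower and 1 higher at an unadjusted p under 0.05. All 8 replication-coupled chromatin factors were lower (median -0.48), from Dnmt1, which copies DNA methylation, at -0.70 (SE 0.35) to Chaf1b, a chromatin assembly subunit, at -0.07 (SE 0.32). Of 7 other nucleotide supply genes 5 were lower (median -0.56), with Ctps, a CTP synthase, at -0.87 (SE 0.34) and Samhd1, which breaks deoxynucleotides down, at 0.31 (SE 0.29). Of 15 other fork and polymerase factors 12 were lower (median -0.31), with the nuclease Dna2 at -1.14 (SE 0.46) and the polymerase delta subunit Pold3 at 0.31 (SE 0.16). Timeless, of the fork protection complex, read -0.34, 0.22 and -0.16 in controls and -1.82, -0.53 and -1.21 in knockouts. Its groups were apart, and the adjusted p was 0.105. Of 11 other origin and kinase factors 8 were lower (median -0.19), with Mtbp at -0.54 (SE 0.26) and Recql4 at 0.31 (SE 0.33). E2F and cyclin-dependent regulators of S phase entry were spread around 0, with 8 of 11 lower and a median of -0.07. Their ends were Cdk2, the S phase kinase, at -0.63 (SE 0.21, adjusted p 0.119) and Cdc25a, the phosphatase that activates it, at 0.49 (SE 0.17, adjusted p 0.124), both with groups apart. E2f1 itself differed by -0.31 (SE 0.27).

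Mitotic genes shared the order of the controls with the members and differed in that of the knockouts. All 18 were lower in the knockout (median -0.51) and 0 were called. Mki67 read 0.75, 1.49 and 1.95 in controls and 0.62, 1.43 and 1.03 in knockouts, and Top2a, which untangles DNA before division, -0.61, 0.61 and 0.89 in controls and -0.87, 0.13 and -0.57 in knockouts. With outlier spots kept, control replicate 1 was the lowest control for 18 of 18 mitotic genes and for 34 of 36 replication genes. Among knockouts, replicate 1 was the lowest for 17 of 18 mitotic genes, whereas replicate 3 was the lowest for 29 of 36 replication genes. Of the 52 tested related genes described above, control replicate 1 was the lowest control for 40. Knockout replicate 3 was the lowest knockout for 31 of them and knockout replicate 1 for 18. A low knockout replicate 3 was thus not particular to the members. Differences between these sets were not tested. In median deviations, knockout replicates 1 and 3 stood at -0.81 and -0.23 for mitotic genes and at -0.17 and -0.53 for replication genes.

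Lymphocyte markers moved with the replication genes from array to array, on values with outlier spots kept. Of 6 markers 5 were tested (Ptprc, Cd3e, Cd79a, Cd79b and Ms4a1), all well above background on all 6 arrays. The fit between genotypes left outlier spots out. There, 5 of 5 markers had a lower knockout mean, 0 were called, and the differences had a median of -0.88. That median was not taken with outlier spots kept. Ptprc, Cd79b and Ms4a1 had outlier spots, and 2 markers, Cd3e and Cd79a, were usable on all arrays. With all spots kept, the median deviation of the 5 was -0.60, 0.94 and 0.78 in controls and -0.25, 0.63 and -1.27 in knockouts. For 5 of 5 markers control replicate 1 was the lowest control, knockout replicate 2 the highest knockout and knockout replicate 3 the lowest. The B cell receptor subunit Cd79a, for example, read -3.62, -0.71 and -1.10 in controls and -2.90, -1.38 and -3.79 in knockouts. Summed linearly over the 5 markers, the signal was 4.45 to 12.6 times the 75th percentile in controls and 3.54 to 10.1 times in knockouts. The part of these cells in the replication result was not tested.

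Other marker lists took other orders, and their sums also keep outlier spots. The 7 tested epithelium markers were all higher in the knockout (median 1.32, 0 called), and their summed signal was 12.0 to 41.6 in controls and 48.7 to 65.9 in knockouts; control replicate 2, the lowest array for them, was high for replication genes. Epcam, of the same list, could not be tested. Crypt base and progenitor markers were divided, 3 lower and 2 higher of 5 tested (median -0.20), with summed signals of 4.12 to 5.59 in controls and 5.12 to 7.46 in knockouts. Of 6 fibroblast markers all were lower (median -0.52, sums 30.3 to 35.8 against 21.2 to 27.6), as were 3 of 3 macrophage markers (median -0.88, sums 5.82 to 9.003 against 3.76 to 5.62). Of 5 neutrophil markers 4 were lower (median -3.73, sums 19.3 to 20.3 against 9.86 to 10.4) and those 4 were called. Mature colonocyte markers, 7 of 7, were higher (median 1.58, sums 12.1 to 44.8 against 54.3 to 71.8), with 0 called. Among these, Krt20, a keratin of surface colonocytes, read 3.02 (an outlier spot), 2.02 and 2.82 in controls and 3.56 (an outlier spot), 3.22 and 3.26 in knockouts. Also higher were 4 of 4 smooth muscle markers (median 0.35, sums 30.9 to 38.6 against 41.5 to 49.6), with 0 called. Of these lists, those of fibroblasts, macrophages and neutrophils had sums that did not overlap between genotypes in the direction of the replication genes, and their part in the difference between genotypes was not tested.

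**Figure D4:**
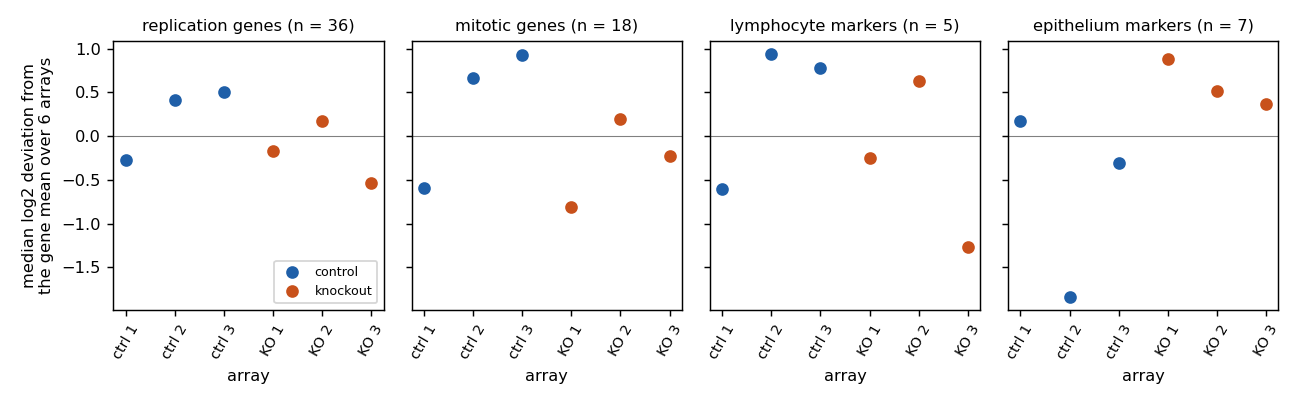
Median log2 deviation from each gene's mean over 6 arrays, outlier spots kept, for 36 replication genes, 18 mitotic genes, 5 lymphocyte markers and 7 epithelium markers; each point is 1 array. Control replicate 1 is low and knockout replicate 2 high within their groups in the first 3 panels, and control replicate 2 is low, at -1.85, in the epithelium panel.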

How the data were processed

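Colon RNA was amplified, labelled and read on 1 Agilent array per sample. Per the file headers, the deposited signals are linear intensities from Agilent Feature Extraction 11.5.1.1 (design 074809, red channel), detrended and background-subtracted by that software, with no scaling between arrays. The submitters' processing notes name version 10.7, and the labels a green channel. The deposited value table, also intensities, served as an alternative.

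From the deposited intensities, log2 values were taken and each array's 75th percentile over non-control spots was subtracted. Outlier spots were set missing. A probe was tested if well above background on all 3 arrays of a group and with at least 2 usable values per group, which left 35351 of 56605 probes. Genotypes were compared in limma (version 3.58.1, R version 4.3.3) by lmFit and eBayes, in a two-sided test at a 5% false discovery rate. The procedure was also run on simulated data, with noise drawn independently for each probe and array. That simulation held no movement shared between genes, so it cannot show how such movement bears on the calls. The small number of arrays limits the precision, and an exact permutation test cannot go below p = 0.1. Replicate numbers follow accession order. The labels do not state in words that samples of a group are separate animals, so p-values measure the spread between these samples.

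Probes were named by RefSeq accession in GRCm38.p6. The files' own build is mm9, so no probe positions are given. The tested probe with the highest mean stood for a gene. By rule, values by array are given for called members and, per role, for those with the largest difference or lowest adjusted p. Related genes are named where called or at the ends of a list. Mki67, Top2a, Krt20 and Islr are given by value. The rule also named Epcam, which could not be tested and has no value here. Others given by array (Mcm5, Pcna, Prim2, untested members, dimmer probes, Timeless and Cd79a) and E2f1 were chosen after their values were seen. Members, lists and tests were chosen with earlier results of these data known. A further lymphocyte marker is not reported here. Alternatives were normexp with quantile normalization, quantile or median scaling, outlier spots kept, no filter, array weights, the value table, the median over probes and leaving out each array.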

Additional observations from a re-analysis of the deposited data

How the results depend on the processing

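The members' median difference stayed below 0 under every alternative run, from -0.65 with array weights to -0.38 with normexp and quantile normalization or with outlier spots kept, and from -0.73 to -0.26 with 1 array left out. The number lower was 25 to 34 in the latter fits and 21 of 23 for members usable on all arrays, an alternative chosen after seeing the data. Called members were 1 of 36 with normexp and quantile normalization, 1 of 36 with quantile normalization (both Pola1) and 2 of 36 with array weights (Orc6 and Pola1). With an array left out they were 0 to 1 (Pola2, of 31 members tested without knockout replicate 2, adjusted p 0.04996). Called genes of the related lists were 6 of 52 with array weights. Of all 35351 tested probes, 1403 were called in the main fit. At the same number tested, they became 2773 with normexp and quantile normalization, 2249 with median centring, 2185 with quantile normalization and 7320 with array weights. Without the filter 484 of 51784 probes were called, and with an array left out 40 to 2114. The correlation of members within genotypes was 0.68 to 0.88 with an array left out. The cause of these shifts was not tested.

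Signs turned for 9 members. With array weights the differences were -0.14 for Orc1, -0.23 for Cdc6, -0.21 for Gins2 and -0.15 for Rfc5. As a median over probes they were -0.15 for Orc1, -0.25 for Cdc6 and -0.19 for Gins2, and with outlier spots kept -0.042 for Gins2 and 0.17 for Prim2. With an array left out they ran from -0.11 to 0.18 for Orc1, -1.35 to 0.33 for Cdc6, -0.83 to 0.12 for Gins2, -0.21 to 0.066 for Rfc2, -0.36 to 0.10 for Rfc3, -0.12 to 0.30 for Rfc5, -0.97 to 0.083 for Prim2, -0.50 to 0.078 for Lig1 and -0.36 to 0.18 for Tyms; a gene's other probe stood in where its first could not be tested. No paired analysis was possible because the labels give no replicate numbers that the genotypes share.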
